A study of Mus musculus with 6 samples.

Results

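The regions described here were open in every library of astrocytes that kept the glucocorticoid receptor (GR) and had no peak in any library of astrocytes that had lost it. They were found by pooling the ATAC-seq peaks of 6 mouse libraries, merging peaks that shared 1 bp or more, and keeping each merged region overlapped by a peak in all 3 GR-con lists and in none of the 3 GR-KO lists. This gave 1669 regions of 185015 in all (0.902%), which are called GR-con-only regions. The mirror choice, a peak in all 3 GR-KO lists and in no GR-con list, gave 881 regions (0.476%). Both counts follow from the choice itself and carry no test. With every list cut to the length of the shortest the counts were 1398 and 985. With any 1 library left out, which loosens the choice, they were 2631 to 3366 and 1488 to 2149, and their ratio fell from 1.89 to 1.22 without GR-KO 2.

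The nuclei came from primary visual cortex (V1) of GR fl/fl mice at postnatal day 21, after injection at P0–P1 of an AAV2/5 vector that carries T2A-EGFP-KASH-4x6T behind Cre in the GR-KO group and behind ΔCre, which cannot recombine DNA, in the GR-con group. The astrocyte promoter GfaABC1D drives both. Both groups therefore carried floxed GR alleles, virus and EGFP, and each library held tissue pooled from several mice, sorted on GFP and the DNA dye DRAQ5. Cre acts only in transduced cells, and the sort keeps nuclei with GFP. Promoter peaks were present in all 6 libraries for 8 of 8 astrocyte markers, and in none for the microglial genes *Csf1r*, *Cx3cr1* and *C1qa*, although *P2ry12* and *Tmem119* had one in all 6, as did 3 of 6 neuronal, 3 of 6 oligodendrocyte lineage and 3 of 5 endothelial and mural genes. At *Nr3c1*, which encodes GR, the promoter peak had a fold enrichment of 6.64 to 7.04 in GR-con and 5.91 to 6.28 in GR-KO libraries. None of the GR-con-only regions had *Nr3c1* as nearest gene or lay in its body, and 1 GR-KO-only region lay in its body. A promoter peak does not report on the deleted part of the gene, so it does not check the knockout. Of 30 marker genes, 7 (23.3%) had promoter folds that did not overlap between the conditions, beside 9.55% of all coding genes (6.48% higher in GR-KO and 3.07% higher in GR-con). They were higher in GR-KO libraries for the astrocyte genes *Sox9*, *Gfap* and *Aldh1l1*, for *Tmem119* (microglia, 3.78 to 6.42 in GR-con and 6.81 to 8.98 in GR-KO) and for *Pdgfrb* (mural cells, 7.76 to 9.21 and 9.83 to 11.3). They were higher in GR-con libraries for the astrocyte gene *S100b* and for *Gad2* (neurons, 4.14 to 5.10, against no peak to 3.79). Folds share no scale between libraries, and the part of other cell types in the results was not tested.

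GR is a nuclear receptor that enters the nucleus when it binds corticosterone, the main glucocorticoid of mice. It binds DNA mostly as a dimer, at palindromes made of a pair of half-sites held apart by a short spacer, and recruits remodellers that open chromatin. In astrocytes it is known to induce metabolic, structural and metallothionein genes.

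The sequences below are shown because, of a short list of motifs searched, the GR palindrome had the highest ratio of its share in the GR-con-only regions to that in all regions. That ratio rests on 5 GR-con-only regions and 31 of all. The palindrome was not used to choose the regions, but the paper had already reported the GR motif at sites that close without GR in this ATAC-seq experiment. The palindrome searched was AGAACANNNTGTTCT, which reads the same on both strands, within 100 bp to each side of the summit of the strongest peak. The 3 shown first hold it with no mismatch in its 12 fixed bases. Capitals mark the palindrome, and coordinates are mm10 (GRCm38), plus strand. The *Hapln1* sequence lies at chr13:89542367-89542441 and the *Mipep* sequence at chr14:60818340-60818414, both in introns. The *Kcnq3* sequence lies at chr15:66240950-66241024, also in an intron.
*Hapln1*: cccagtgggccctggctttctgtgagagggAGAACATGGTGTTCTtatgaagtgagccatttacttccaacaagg
*Mipep*: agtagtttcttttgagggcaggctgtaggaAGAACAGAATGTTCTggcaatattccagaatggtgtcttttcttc
*Kcnq3*: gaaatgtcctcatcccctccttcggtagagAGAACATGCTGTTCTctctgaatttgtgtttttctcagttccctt

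Among the 10 strongest regions, 6 held a less perfect copy. Their sequences follow in order of strength, each with its best match, of 1 or 2 mismatches, in capitals. They lie near *Itga2b* (chr11:102510363-102510417), *Mettl21e* (chr1:44216863-44216917), *Rai2* (chrX:161856094-161856148), *Hmgb4* (chr4:128226658-128226712), *Setmar* (chr6:108093568-108093622) and *Ptprg* (chr14:12059335-12059389). All are introns except the *Setmar* sequence, which is intergenic.
*Itga2b*: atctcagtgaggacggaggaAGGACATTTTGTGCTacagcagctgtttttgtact
*Mettl21e*: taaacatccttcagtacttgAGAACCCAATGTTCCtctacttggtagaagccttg
*Rai2*: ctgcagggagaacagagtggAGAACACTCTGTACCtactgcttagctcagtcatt
*Hmgb4*: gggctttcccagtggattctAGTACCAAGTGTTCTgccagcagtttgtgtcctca
*Setmar*: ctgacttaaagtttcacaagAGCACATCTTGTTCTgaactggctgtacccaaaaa
*Ptprg*: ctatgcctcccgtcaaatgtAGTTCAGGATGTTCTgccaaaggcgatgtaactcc

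The *Itga2b* match was centred on the summit itself (0 bp), the *Ptprg* match 6 bp from it and the *Mettl21e* and *Hmgb4* matches 23 bp from it. The *Rai2* and *Setmar* matches lay 30 and 81 bp from the summit. A further 3 members with 1 mismatch are shown because they lie near genes described later. They lie near *Tgfbr2* (chr9:116408329-116408383), *Hs3st1* (chr5:39261005-39261059) and *Nfia* (chr4:97761465-97761519).
*Tgfbr2*: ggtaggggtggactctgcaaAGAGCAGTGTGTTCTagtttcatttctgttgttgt
*Hs3st1*: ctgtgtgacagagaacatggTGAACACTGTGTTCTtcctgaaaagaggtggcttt
*Nfia*: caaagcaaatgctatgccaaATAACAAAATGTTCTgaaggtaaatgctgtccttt

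The GR-con-only regions were mostly small and weak. Their median width was 296 bp (interquartile range 233 to 393 bp, 151 to 1241 bp in all), against 270 bp for the GR-KO-only regions, 271 bp for the 9407 regions with a peak in 3 libraries of both conditions, and 626 bp for the 90301 regions with a peak in all 6. The fold enrichment of a peak is its height above the background around it, and each library has its own scale, so peaks were also ranked within their list. The lists repeat some intervals, and the ranks count every entry. The median fold at the GR-con-only regions was 3.25, 3.21 and 3.10 in GR-con 1, 2 and 3, or 3.19 ± 0.0803 (SD, n = 3). By fold, the median GR-con-only region stood at percentile 27.8 ± 0.856 (SD, n = 3) of its list, against 24.2 ± 1.35 (SD, n = 3) for the GR-KO-only regions in the GR-KO lists. Regions with a peak in all 6 libraries stood at percentile 73.7 ± 1.102 (SD, n = 3) in the GR-con lists.

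Of the 1669 regions, 1285 (77.0%) lay below the median of their list in all 3 GR-con libraries and 63 above it in all 3. A q-value under 0.01 was reached in every GR-con list by 1253 regions (75.1%) and in none of them by 12. A fold of 3 or more in all 3 libraries was held by 667 regions, of 5 or more by 40 and of 8 or more by 5. At the limit of the choice, the lowest −log10 p of a member's peak was 2.00, the p-value limit of the lists. Just outside the choice, the 3141 regions with a peak in all 3 GR-con lists and in 1 GR-KO list had a median GR-con fold of 3.31, and the 4599 with a peak in 2 GR-con lists and no GR-KO list had 2.86, beside 3.21 for the GR-con-only regions taken in the same way. A missing GR-KO peak says that no peak passed the authors' limit there, and signal below that limit was not analysed here. The median distance from a GR-con-only region to the nearest GR-KO peak was 2176 bp. That gap was at most 500 bp for 366 regions (21.9%) and over 10 kb for 294 (17.6%).

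Folds of the same region varied between the 3 GR-con libraries. The highest of the 3 folds was a median of 1.34 times the lowest, and 67 regions had a ratio of 2 or more, up to 4.64. The log2 folds of the 1669 regions correlated between pairs of GR-con libraries with r of 0.622 to 0.670, a description over regions that share libraries and a lower limit. The highest fold was seen in GR-con 1 at 651 regions, in GR-con 2 at 607 and in GR-con 3, whose list was the longest, at 411.

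The strongest region by the lowest of its 3 folds lay at chr11:102510080-102510622 in an intron of *Gpatch8*, with *Itga2b*, the platelet integrin alpha chain, as nearest coding gene 40468 bp away. Its fold was 15.02, 13.6 and 13.9 in GR-con 1, 2 and 3, a narrow range (14.2 ± 0.746, SD, n = 3), and the nearest GR-KO peak was 13618 bp away. The next, at chr1:44216343-44217058 in an intron of *Mettl21e*, a lysine methyltransferase gene, had folds of 17.0, 13.0 and 10.3. Here GR-con 3 was the lowest of the 3, as it was at 6 of the 10 strongest regions. The third, at chrX:161855716-161856458 in an intron of *Nhs*, had *Rai2* as nearest gene, 138460 bp away, and folds of 12.3, 8.47 and 9.97.

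The 2 that followed were near *Hmgb4*, an HMG-box gene, in an intron of *Csmd2* (chr4:128226395-128226890, folds of 8.19, 9.81 and 8.79), and near *Setmar*, a histone methyltransferase gene, in intergenic DNA (chr6:108093438-108093908, folds of 9.27, 10.9 and 8.01). These 5 were the regions with a fold of 8 or more in every GR-con library. An intronic region of *Col4a1*, a collagen of the basement membrane, had folds of 10.8, 7.90 and 8.11 at chr8:11270806-11271307, and an intronic region of *Ttll3*, a tubulin glycylase, had folds of 7.41, 8.47 and 7.22 at chr6:113402156-113402511. An intergenic region 163276 bp from *Cartpt*, the gene of the CART neuropeptide precursor, had the highest mean −log10 p of all GR-con-only regions (72.8), at chr13:99736941-99737790. It was also the least even of the 10, with folds of 19.4, 15.2 and 6.93. The last 2 of the 10 lay near *Tprg* (folds of 7.56, 7.90 and 6.76) and in an intron of *Ptprg*, a receptor tyrosine phosphatase (folds of 10.8, 9.55 and 6.69). The widest GR-con-only region (1241 bp) lay in an intron of *Tfcp2l1*, at chr1:118642926-118644166, with folds of 9.08, 6.44 and 5.02.

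**Figure D1:**
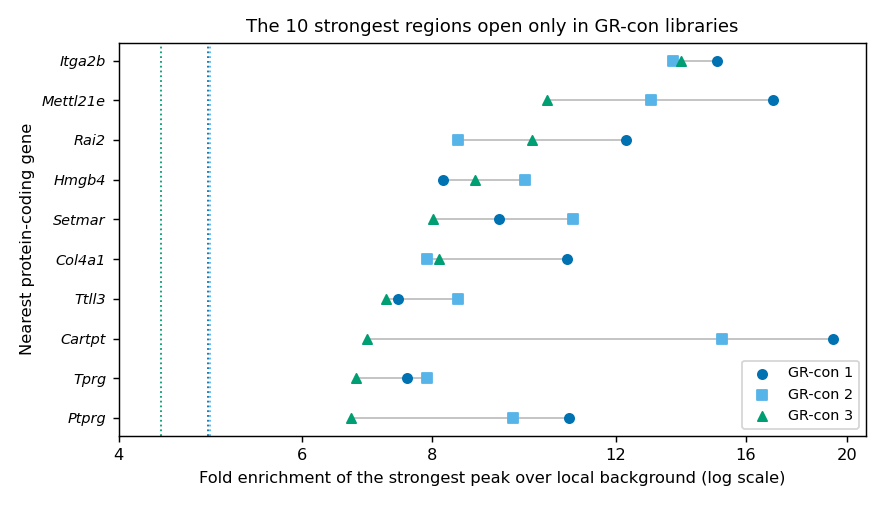
Fold enrichment over local background (log scale) of the strongest peak in each GR-con library at the 10 strongest GR-con-only regions, named by nearest coding gene. Points are libraries, grey lines their range, and dotted lines the median fold of each list (4.40 to 4.89). Every point lies right of the dotted lines, and the *Cartpt* region is spread most, from 6.93 to 19.4.

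The GR-con-only regions lay far from promoters. Of the 1669, 70 (4.19%) were within 1 kb of a protein-coding TSS, 332 (19.9%) at 1 to 10 kb, 864 (51.8%) at 10 to 100 kb and 403 (24.1%) beyond 100 kb. The share beyond 10 kb was 75.9%, against 70.5% of all merged regions. It was close to the 78.3% of the GR-KO-only regions and the 76.6% of the regions in 3 libraries of both conditions, and above the 64.6% of the regions open in all 6, of which 17.0% were within 1 kb. By the position of their centre, 875 lay in an intron of a coding gene, 70 in an exon, 70 in a promoter (within 1 kb of a TSS) and 654 between genes. These were 52.4%, 4.19%, 4.19% and 39.2%, beside 49.1%, 4.80%, 10.7% and 35.4% of all merged regions. Their median GC content around the summit was 48.8%, as at the GR-KO-only regions, against 51.7% for regions open in all 6. The share of merged regions that were GR-con-only ran from 0.777% to 1.04% on the autosomes and the X chromosome, and was 0 of 20 on the Y.

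At promoters, the strongest GR-con-only region covered the start of *Etnppl*, an astrocyte-enriched phospho-lyase of ethanolamine phosphate, at chr3:130617332-130618036, with its centre 9 bp upstream of the nearest annotated TSS. Its fold was 7.84, 8.34 and 6.55 (7.58 ± 0.921, SD, n = 3), or percentile 68.9, 70.7 and 66.6 of the lists, above the list median in all 3 libraries. The nearest GR-KO peak was 2840 bp away. *Fam3b*, a secreted cytokine-like protein, had folds of 5.48, 4.70 and 5.58 at 63 bp upstream of its TSS (chr16:97514655-97515103), and *Arhgap18*, a GTPase-activating protein, had folds of 6.05, 7.34 and 4.30 at 191 bp downstream of its TSS (chr10:26822593-26822993). Weaker regions stood 445 bp upstream of *Kcnk2*, a background potassium channel, and 491 bp upstream of *Angpt4*, a ligand of the Tie2 receptor, with folds of 3.78 to 4.06 and 3.76 to 4.90.

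The exact palindrome was rare. It was present in 5 of the 1669 GR-con-only regions (0.300%), in 31 of all 185015 merged regions (0.0168%) and in none of the 881 GR-KO-only regions. With 1 library left out the share was 0.120% (without GR-con 1) to 0.257%. The *Hapln1* region, near the gene of a link protein of hyaluronan, had folds of 5.42, 6.09 and 6.42 and stood 462 bp from the nearest GR-KO peak. The *Mipep* region, in the gene of a mitochondrial peptidase, had folds of 6.43, 6.21 and 4.06. The region in an intron of *Atp9b*, a phospholipid flippase gene, had 6.05, 4.52 and 3.72. The region in *Kcnq3*, a potassium channel gene, was weak, with 2.62, 2.48 and 2.37. Allowing 1 mismatch, 43 GR-con-only regions (2.58%) held it, against 1 GR-KO-only region (0.114%) and 0.227% of all regions. Allowing 2, a limit chosen after these values were seen, the numbers were 167 (10.0%), 14 (1.59%) and 2.02%, and regions open in all 6 libraries stood at 1.75%. A relaxed palindrome of GNACANNNTGTNC, also added after seeing the data, was held by 113 GR-con-only regions (6.77%), 1 GR-KO-only region and 0.660% of all regions. Every window had the same length, and these shares are descriptions with no test. With 1 library left out, which loosens the choice, the share at up to 2 mismatches was 6.32% to 8.21%, lowest without GR-con 1 and 6.57% without GR-con 2.

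Single half-sites showed the same order. AGAACA on either strand was in the window of 529 GR-con-only regions (31.7%), against 141 of the 881 GR-KO-only regions and 18.2% of all, and 104 (6.23%) held at least 2 copies, against 2.06% of all. Windows that held a half-site but no palindrome at up to 2 mismatches made up 24.4% of the GR-con-only regions and 16.9% of all. Neither feature was found in 1094 GR-con-only regions (65.5%), and in 81.1% of all. At 38 members with exactly 1 mismatch, the mismatch was most often at position 3 or its mirror position 13 (15 regions) and next at the outermost positions 1 or 15 (12 regions), counted from the 5′ end on the plus strand.

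The half-sites of the GR-con-only regions gathered towards the summit. In 20 bp bins along the plus strand they numbered 3.00 per 100 regions in the first bin, 5.21 in the bin that starts at the summit and 2.64 in the last, while regions open in all 6 libraries held between 1.66 and 1.99 per 100 regions in every bin. The best match at up to 2 mismatches lay a median of 32 bp from the summit in the 167 GR-con-only regions, and within 25 bp in 69 of them (41.3%). In the 1579 regions open in all 6 libraries that held one, the median was 47 bp and 25.97% were within 25 bp.

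**Figure D2:**
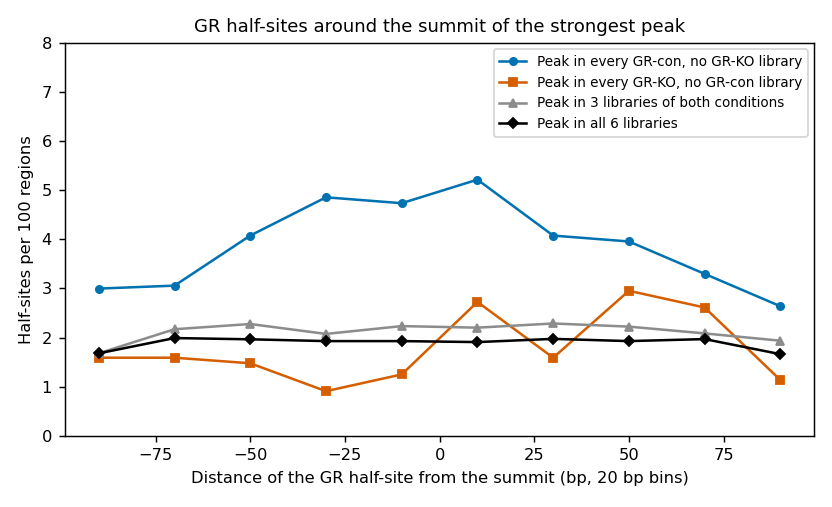
GR half-sites (AGAACA, both strands) per 100 regions in 20 bp bins around the summit of the strongest peak, for 4 sets of regions. The GR-con-only line stands above the others in each bin and has its lowest values at both ends (3.00 and 2.64), while the line of regions open in all 6 libraries stays between 1.66 and 1.99.

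The share with the palindrome at up to 2 mismatches differed with the number of libraries with a peak, but not in the same way throughout. Among regions with a peak in all 3 GR-con lists, it was 10.0% with no GR-KO peak, 4.33% with a peak in 1 GR-KO list, 2.81% in 2 and 1.75% in 3. Among regions with no GR-KO peak it was 10.0% for 3 GR-con lists, 3.54% for 2 and 2.51% for 1. Regions held by GR-KO lists alone stayed at 1.69%, 1.31% and 1.59% for 1, 2 and 3 lists. With a peak in 1 GR-KO list the share rose from 1.69% with no GR-con list to 4.33% with 3. With a peak in all 3 GR-KO lists it did not follow the number of GR-con lists. There it was 1.59%, 1.21%, 1.42% and 1.75% for 0, 1, 2 and 3 GR-con lists.

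**Figure D3:**
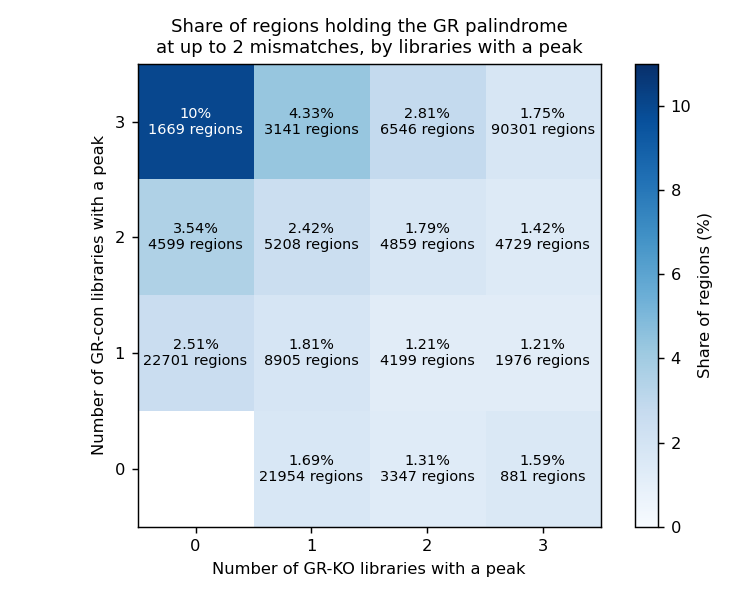
Share of merged regions holding the GR palindrome at up to 2 mismatches within 100 bp of the summit, by the number of GR-con (rows) and GR-KO (columns) libraries with a peak. Each cell gives the share and the number of regions. The top left cell, the 1669 GR-con-only regions at 10.0%, is the highest, and the cells of GR-KO lists alone lie between 1.31% and 1.69%.

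Within the GR-con-only regions it was highest among the strongest. Split into 4 near-equal bins from weakest to strongest, by the lowest of the 3 folds, 6.84%, 5.60%, 9.95% and 17.7% of the regions held the palindrome at up to 2 mismatches, so the share did not rise between the weaker bins. Of the 40 regions with a fold of 5 or more in every GR-con library, 20 did (50.0%), and 23 held a half-site. At that strength, 22.1% of the 77 regions with 1 GR-KO peak, 7.69% of the 273 with 2 and 1.79% of the 62639 with 3 held the palindrome. At a lowest fold under 2.37, the shares were 6.84% with no GR-KO peak, 2.40% with 1, 1.87% with 2 and 1.77% with 3. The share fell with each further GR-KO peak in all 5 bands of strength compared.

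The other motifs searched differed from all regions by fewer percentage points than the GR half-site did, a measure that stays small for rare motifs. The half-site TTGGC of NFI, a family of factors of the astrocyte lineage, was in 47.3% of the GR-con-only regions, 47.2% of all regions and 54.5% of the GR-KO-only regions. The full NFI palindrome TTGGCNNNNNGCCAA was in 3 GR-con-only regions (0.180%) and 0.0584% of all regions. As a ratio to all regions it stood higher than the GR half-site, though on these 3 regions only. The SOX motif ACAATG was in 12.6% against 10.1% of all regions, the STAT motif TTCNNNGAA in 7.97% against 6.30%, the LIM-homeobox core TAATTA in 7.31% against 5.97%, and the C/EBP motif TTGCNNAA in 9.35% against 8.69%. The AP-1 motif TGANTCA was in 5.99% against 6.75%, and in 9.31% of the GR-KO-only regions. Motifs of promoters and boundaries were less common than over all regions, with GGGCGG of SP/KLF at 4.73% against 9.82% and the CTCF core AGGGGGC at 4.19% against 5.81%. The GR-KO-only regions (4.09% and 3.06%) and the regions in 3 libraries of both conditions (4.85% and 3.901%) had similarly low shares of these. The remaining shares were 3.36% against 4.21% for RFX (GTTGCCA), 11.6% against 11.5% for TEAD (GGAATG) and 0.300% against 0.483% for CRE (TGACGTCA). The SOX motif can overlap the end of the AGAACA half-site at ACA, and the STAT motif the TTC of the GR palindrome. All were searched on both strands.

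The nearest coding genes of the 1669 regions numbered 1415, of which 1227 were nearest to 1 region, 143 to 2 and 45 to 3 or more. The list of genes classically induced by glucocorticoids was made with earlier results of these data known. Of its 24 genes, 5 were nearest to a GR-con-only region, against 6.48% of all 21829 coding genes. Counted by regions, 9 of the 348 merged regions nearest to these genes were GR-con-only (2.59%, against 0.902% of all), and 1 was GR-KO-only. Among 15 genes that the study names as lower without GR in astrocytes or as bound by GR, 8 were nearest to at least 1 GR-con-only region and 2 to a GR-KO-only region, against 3.67% of all coding genes for the latter. By regions, 12 of 307 were GR-con-only (3.91%). That list was drawn from the genes the study names, some of them found in the same GR-con and GR-KO comparison. It shares *Zbtb16*, *Hif3a*, *Mt2*, *Mt1* and *Fam107a* with the first list, so neither list is independent evidence of a direction. Among 8 genes the study names as repressed by GR, all of the extracellular matrix and its proteases, 1 was nearest to a GR-con-only region (*Adamts9*, 386761 bp away, folds of 3.21, 3.95 and 2.37) and 2 to GR-KO-only regions. Of the 251 merged regions nearest to these 8 genes, 1 was GR-con-only (0.398%) and 2 were GR-KO-only (0.797%).

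*Fkbp5*, a co-chaperone that lowers the hormone affinity of GR, was nearest to 2 GR-con-only regions, both in its introns. The stronger, at chr17:28512547-28513087 and 1460 bp from the nearest annotated TSS, had folds of 6.81, 8.52 and 5.40 (6.91 ± 1.56, SD, n = 3), above the list median in each library. The weaker, at chr17:28411442-28411930, had folds of 3.42, 4.15 and 3.56, below it in each. The best palindrome match of the stronger region had 3 mismatches, 29 bp from the summit (chr17:28512873-28512927), and is shown because the gene is a standard readout of GR.
*Fkbp5*: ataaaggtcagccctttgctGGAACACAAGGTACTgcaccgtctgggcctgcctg

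*Zbtb16*, a zinc finger transcription factor, had 3 regions in its introns, with folds of 3.16, 2.95 and 3.21 at chr9:48795420-48795870, of 3.01, 2.38 and 3.38 at chr9:48782301-48782640 and of 2.22, 3.36 and 3.55 at chr9:48823080-48823303. All of these were weak. *Hif3a*, a hypoxia-inducible factor subunit, had a region in its coding sequence (chr7:17044358-17044758, folds of 2.51, 2.51 and 2.70) and an intronic region of 780 bp (chr7:17060748-17061527, folds of 3.30, 3.72 and 2.37). The second of these had a mean −log10 p of 53.8, the highest −log10 p among the listed genes, although its folds were below the list median. It stood 249 bp from the nearest GR-KO peak. *Bcl6*, a transcriptional repressor, had 1 region 4894 bp upstream (folds of 2.28, 2.26 and 2.41).

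*Mt2*, a metallothionein that binds zinc and other metals, had a region 1201 bp upstream of its TSS at chr8:94171276-94171651, with folds of 2.69, 1.89 and 1.79. The nearest GR-KO peak stood 436 bp away. It was among the weakest members by fold, yet held a palindrome with 2 mismatches 12 bp from its summit (chr8:94171515-94171569), shown for that reason.
*Mt2*: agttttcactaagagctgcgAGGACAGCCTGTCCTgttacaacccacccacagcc

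Of the other genes on the study's list of lowered or bound genes, *Aldh1a1*, a retinaldehyde dehydrogenase, had an intronic region with folds of 4.35, 3.39 and 3.04 (chr19:20614187-20614452). *Cntn1*, a neural adhesion molecule, had 2 regions, with folds of 3.40, 6.77 and 3.38 at chr15:92106515-92106902 and of 4.18, 3.20 and 2.97 at chr15:91974352-91974629. The first of these was strong in GR-con 2 alone. *Ezr*, which links membranes to actin, had a region 30171 bp upstream with folds of 2.85, 2.44 and 2.66 that ended 23 bp from a GR-KO peak. *Cables1*, an adaptor of cyclin-dependent kinases, had an intronic region with folds of 2.28, 2.202 and 1.99, 486 bp from the nearest GR-KO peak. *Etnppl* had the strongest region of the list.

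Astrocyte genes were nearest to a GR-con-only region for 6 of 24, while 9 of the 1015 merged regions nearest to them were GR-con-only (0.887%, beside 0.902% of all). *Nfia*, an NFI factor of the astrocyte lineage, had 2. The first lay in an intron of the neighbouring *E130114P18Rik* (chr4:97761326-97761614, folds of 4.54, 4.08 and 3.69) and held the 1-mismatch palindrome printed above. The other lay in an exon of *Nfia*, in an untranslated region, with folds of 2.82, 3.67 and 2.73, and stood 168 bp from the nearest GR-KO peak. *Nfib*, of the same family, had a region 349387 bp away with folds of 5.10, 3.57 and 3.89. *Glul*, glutamine synthetase, had 2 intergenic regions, with folds of 3.40, 3.76 and 3.38 and of 4.35, 3.39 and 3.04, the same 3 values as at *Aldh1a1*. *Sox9*, a glial transcription factor, had a region 517884 bp upstream with folds of 3.02, 2.82 and 3.55.

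Regions at 2 astrocyte transporter genes were weaker. *Slc1a3*, a glutamate transporter, had an intronic region with folds of 2.21, 1.91 and 2.15. *Slc4a4*, a bicarbonate transporter, had 2 intronic regions with folds of 1.91, 1.93 and 2.14 and of 2.15, 2.69 and 1.87. The first of these stood 157 bp from the nearest GR-KO peak. Of 15 genes of the circadian clock, *Tef* alone was nearest to one, with folds of 2.82, 3.06 and 1.81, a share of 6.67% beside the 6.48% of all coding genes, and none was nearest to a GR-KO-only region. By regions, 1 of the 190 nearest to clock genes was GR-con-only (0.526%, beside 0.902% of all). Within 100 kb of a GR-con-only region lay 5 of the 15 clock genes, 6 of the 24 classically induced genes, 9 of the 15 genes named as lowered or bound, 0 of the 8 named as repressed and 9 of the 24 astrocyte genes, beside 14.2% of all coding genes.

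**Figure D4:**
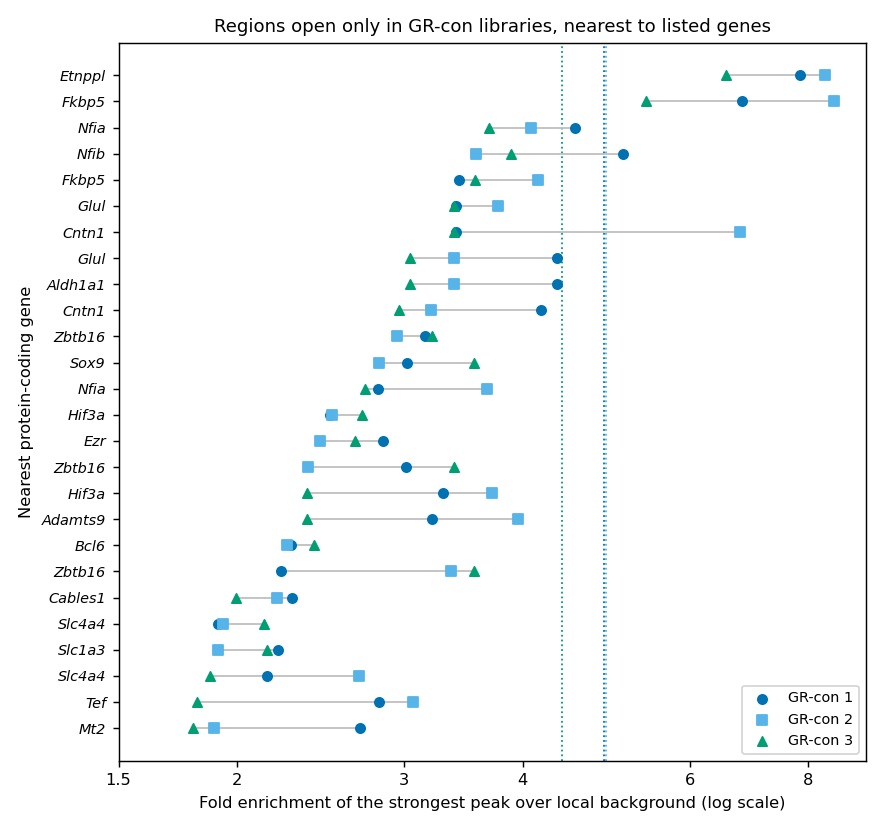
Fold enrichment (log scale) in each GR-con library at the 26 GR-con-only regions nearest to a listed gene, ordered by the lowest of the 3 folds. Points are libraries, grey lines their range and dotted lines the list medians (4.40 to 4.89). The regions at *Etnppl* and the stronger one at *Fkbp5* lie right of every dotted line, and most others lie left of all of them.

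Some genes were nearest to several regions. *Pou3f3*, a POU transcription factor, had 6, spread over intergenic DNA from 10202 to 875585 bp from its TSS, of 126 merged regions nearest to it. The adhesion gene *Ntm* and the RNA-binding gene *Msi2* had 5 each, of 302 and 82 merged regions. A further 6 genes had 4, among them *Hs3st1*, a heparan sulfate sulfotransferase, of 31 merged regions, and *Mapk1ip1*, of 18. The others were *Fam196a* (of 49), *Mdga2* (of 53), *Ntrk2*, the receptor of BDNF (of 116), and *Cadm1* (of 166). Over all merged regions the share was 0.902%, and the genes were named for their counts, which are descriptions.

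The regions around these genes differed in strength. The strongest near *Hs3st1*, 383634 bp from its TSS, had folds of 13.2, 11.5 and 6.09 (chr5:39260672-39261255), held the 1-mismatch palindrome printed above, and stood 45295 bp from the nearest GR-KO peak. Near *Ntrk2* all 4 regions lay in its introns, the strongest with folds of 6.397, 6.20 and 4.46 at chr13:59067818-59068072. The 5 at *Ntm*, all intronic, had folds of 1.95 to 3.59, and the 5 at *Msi2* of 1.74 to 3.52. Both sets were below the list medians in every library.

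Most GR-con-only regions stood alone. With neighbours counted up to 50 kb apart, 1443 regions had none, 96 groups held 2, 10 held 3 and 1 held 4. The group of 4 spanned 56637 bp at *Farp1*, with folds of 1.95 to 4.14, and 1 of its regions stood 98 bp from a GR-KO peak. A group of 3 lay 177985 to 232851 bp upstream of *Tgfbr2*, the type II receptor of TGF-β. Its last region was among the strongest of all (chr9:116407951-116408471, folds of 6.804, 8.47 and 6.59) and held the 1-mismatch palindrome printed above. A group of 3 at *Armc2* had folds of 2.70 to 8.66, the highest in GR-con 2.

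Whether such regions recur in libraries that did not choose them was read by leaving out 1 GR-con and 1 GR-KO library and choosing on the other 4, in all 9 ways. Each choice gave 4497 to 5274 regions with a peak in both remaining GR-con lists and neither remaining GR-KO list. The left-out GR-con library had a peak at 55.5%, 55.3% and 60.4% of them for GR-con 1, 2 and 3 (57.1% ± 2.89, SD, n = 3 libraries, each averaged over 3 choices). The left-out GR-KO library had a peak at 36.2%, 32.1% and 34.6% for GR-KO 1, 2 and 3 (34.3% ± 2.06, SD, n = 3). The values of the conditions did not overlap in any of the 9 choices, and with 3 libraries against 3 an exact permutation test cannot give a p below 0.1. For the mirror choice the left-out GR-KO library had a peak at 49.8% on average and the left-out GR-con library at 36.7%.

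Regions with the palindrome at up to 2 mismatches recurred more often, but that limit was chosen after values from all 6 libraries were seen. The left-out libraries were therefore not independent of the limit, and recurrence was not compared at equal strength. Each choice gave 267 to 316 regions that held the palindrome at up to 2 mismatches. At these the left-out GR-con library had a peak at 76.5% on average (69.9% to 81.3%) and the left-out GR-KO library at 21.5% (18.4% to 25.2%). For the mirror choice 36 to 47 regions held it, and the averages were 49.3% in the left-out GR-KO and 33.2% in the left-out GR-con library. GR-con 3, with the longest list, had the highest share at all chosen regions and the lowest at those with the palindrome (69.9% to 73.1%).

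**Figure D5:**
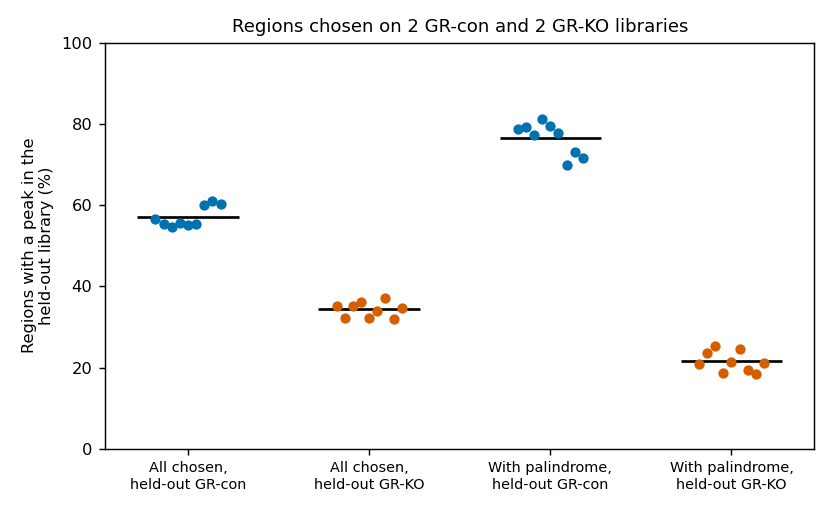
Share of regions with a peak in the left-out library (%), for regions chosen on 2 GR-con and 2 GR-KO libraries. Points are the 9 choices, which share libraries, and lines their means. The left-out GR-con points lie above the left-out GR-KO points for all chosen regions (57.1% and 34.3% on average) and are farther apart for those with the palindrome (76.5% and 21.5%). The palindrome limit was chosen with values from all 6 libraries seen.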

How the data were processed

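ATAC-seq peak lists of 3 GR-con and 3 GR-KO libraries were analysed. The authors ran ENCODE's ATAC-seq pipeline, version 2.2.0, against mm10, without multimapped reads and with a p limit of 0.01 for peaks. They deposited 1 list per library, called on that library alone. The deposited values are a fold over local background (a ratio) and −log10 values of p and q. The lists hold 179462 to 198929 entries, each counted as a peak, over 129629 to 138813 distinct intervals. They carry no read counts, so depth is unknown, and differences in depth could move weak peaks across the limit.

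Peaks were pooled and merged in Python 3.11.15 with pandas 2.3.3 and numpy 2.4.6. The summit of a region is that of its peak of highest −log10 p. Distances run from the region's centre to the nearest protein-coding TSS of GENCODE M21, and sequences come from GRCm38.p6. No peak ended beyond its chromosome. Steps were tested on simulated lists.

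Named regions are the 10 of highest minimum fold, those with the exact palindrome, the 5 strongest at promoters, the largest groups, the widest and most significant, those of genes with most regions and all nearest to listed genes. Shown regions with 1 mismatch that none of these name were added after their values were seen. The members and gene lists were chosen with earlier results of these data known. Sources differ on how many mice a library pooled. Some named regions and sequences are not reported here.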

Additional observations from a re-analysis of the deposited data

How the results depend on the processing

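Alternatives were a q-value limit of 0.01, lists cut to equal length, merging across 200 bp, a peak covering at least 50% of the region, autosomes only, and leaving out each library. The settings for the palindrome at up to 2 mismatches, the half-site and the GR-KO-only count were added after seeing the data. Of 99 values, 56 stayed within the spread between libraries, the 95% binomial interval or, for counts, 1.5 times the reported value. These limits differ in kind between results. The binomial interval treats regions of the same 6 libraries as independent, so it does not measure variation between libraries. Leaving out any 1 of the 6 libraries asks for fewer lists by construction. It gave 2631 to 3366 GR-con-only and 1488 to 2149 GR-KO-only regions, a median width of 247 to 302 bp, a percentile of 23.2 to 29.2, 75.5 to 76.5% beyond 10 kb, an exact palindrome in 0.120 to 0.257%, one at up to 2 mismatches in 6.32 to 8.21% (lowest without GR-con 1) and a half-site in 25.9 to 30.8%. GR-con-only regions outnumbered GR-KO-only regions under every setting, by 1.22 times (without GR-KO 2) to 2.46 times (q-value limit).

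The median width was 313 bp with the q-value limit, 312.5 bp when merging across 200 bp and 266 bp with the 50% cover, and the percentile was 29.9 and 30.3 under the last 2 and 24.3 by −log10 p. With the TSS of all annotated genes, 53.7% lay beyond 10 kb. The palindrome share was 2.58% at up to 1 mismatch and 6.77% for the relaxed form. At up to 2 mismatches it was 12.3% in windows of 200 bp each side and 12.5% over whole regions. The left-out share was 58.8% with the q-value limit and 57.3% with equal lists. No paired analysis was possible because no result comes from a test, and replicate numbers only name libraries. Depth is unknown, so a missing GR-KO peak is not shown to be closed chromatin.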

Other observations

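Of the 40 strongest GR-con-only regions, 20 held no palindrome at up to 2 mismatches, and most of their genes were on no list. Those named here were chosen after their values were seen. *Lrrc8c*, a subunit of volume-regulated anion channels, had an intronic region with a lowest fold of 6.23 and a half-site, and *Tns1*, a focal adhesion protein, had one with 5.44 at 389 bp from the nearest GR-KO peak. The region near *Irx5*, an Iroquois homeobox gene, reached 5.46 with a best match of 5 mismatches and stood 49458 bp from the nearest GR-KO peak. The promoter region of *Etnppl* reached 6.55 with a best match of 6 mismatches and no half-site, the poorest match among the 40.

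By position, palindromes at up to 2 mismatches were held by 6 of the 70 GR-con-only regions at promoters (8.57%), where 0.612% of all merged promoter regions held one, by 5 of 70 in exons (7.14%, against 1.48% of all), by 92 of 875 in introns (10.5%, against 2.26%) and by 64 of 654 between genes (9.79%, against 2.202%).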
